A study of Mus musculus with 2 samples.

Results

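The genes that make, break down or bind retinoic acid were followed in RNA of the embryonic mouse midbrain: Rdh10, Aldh1a1, Aldh1a2, Aldh1a3, Cyp26a1, Cyp26b1, Cyp26c1, Crabp1 and Crabp2. They were chosen by symbol for their known roles, with no threshold on a measured value, and all 9 were found among the 43346 Ensembl genes of the tables. The choice of members and of the lists below was made with earlier results of these data known. Midbrain tissue was taken at embryonic day 10.5 from healthy B6NCrl mice, males and females together. Replicate 1 was a pool of midbrains from 69 embryos and replicate 2 a pool from 51 embryos. They form a single group with no treatment, genotype or second time point, so the comparisons are between genes within the tissue and between the 2 pools. The labels call the pools biological replicates. A pool averages over its embryos, so the spread between the 2 libraries does not measure the spread between embryos.

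Retinoic acid is a small signalling molecule made from vitamin A. Retinol is oxidised to retinaldehyde, mainly by the retinol dehydrogenase encoded by Rdh10, and retinaldehyde dehydrogenases of the Aldh1a family complete the synthesis. Cyp26 enzymes of the cytochrome P450 family oxidise retinoic acid to inactive products, and the cellular retinoic acid-binding proteins Crabp1 and Crabp2 hold it in the cytoplasm. In the embryo, sources set by Aldh1a genes and sinks set by Cyp26 genes pattern the hindbrain, the spinal cord and the eye, while Aldh1a1 is also known as a gene of midbrain dopaminergic progenitors and Aldh1a3 and Aldh1a1 as genes of the ventral and dorsal retina.

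The libraries held 45531621 expected counts in genes for replicate 1 and 50477634 for replicate 2, where an expected count is a number of reads assigned to a gene by estimation. Levels are in TPM, a transcript abundance corrected for length and library total, so they can be compared between genes. Midbrain markers were present in both libraries, with Otx2, a homeobox gene of forebrain and midbrain, at 138 and 123 TPM and 7 of 8 midbrain genes at 1 TPM or more in both. Neuronal genes were lower in replicate 2: 8 genes of newborn neurons summed to 1164 and 742 TPM, and 8 progenitor genes to 2785 and 2288 TPM.

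The members' levels spanned more than 3 orders of magnitude, with the binding proteins at the top and every enzyme gene under 10 TPM. Crabp1 averaged 1031 TPM ± 88.2 (SD, n = 2) and Crabp2 528 TPM ± 75.2, while the highest enzyme gene, Aldh1a3, averaged 4.32 TPM ± 4.97. The summed level of the 2 Crabp genes was 156 times that of the 7 enzyme genes in replicate 1 and 72.4 times in replicate 2. Detection, set at 1 TPM in both libraries, was met by 6 of the 9 members, against 58.1% of 21474 protein-coding genes. Aldh1a2, Aldh1a3 and Cyp26c1 missed it.

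**Figure D1:**
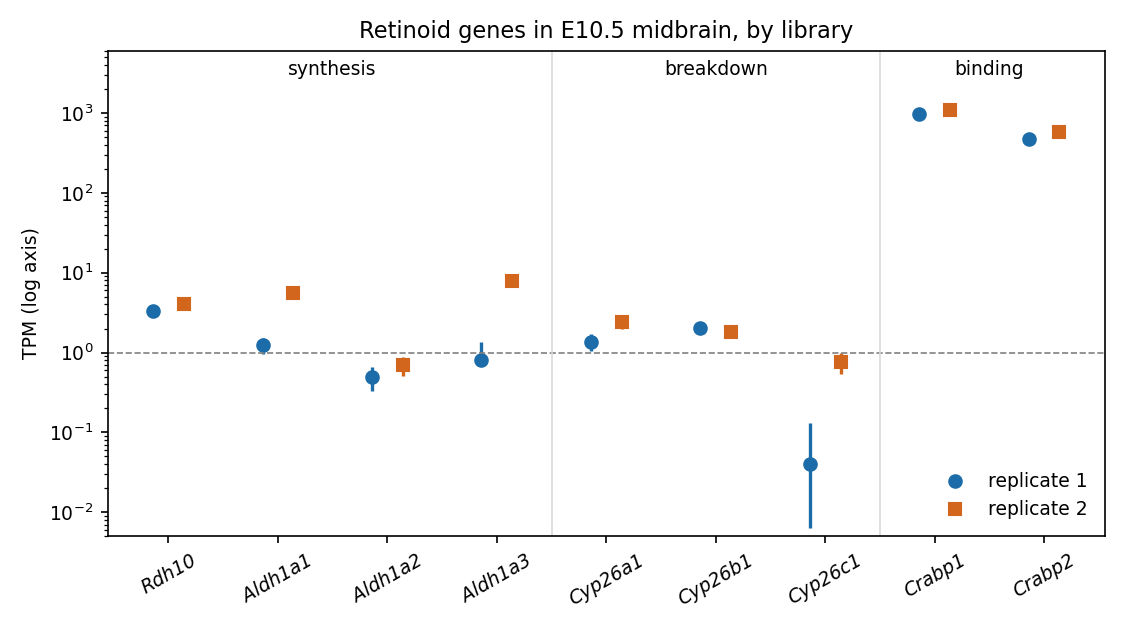
TPM of the 9 members (log axis) in replicate 1 (circles) and replicate 2 (squares), ordered by role; vertical lines are the deposited bounds of the credible interval, which surround the posterior mean and not the plotted TPM, and the dashed line is 1 TPM. Crabp1 and Crabp2 stand far above the enzyme genes in both libraries, and Aldh1a1, Aldh1a3 and Cyp26c1 are separated most between the libraries.

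In order of mean level, Crabp1 came first, then Crabp2, Aldh1a3, Rdh10, Aldh1a1, Cyp26b1, Cyp26a1, Aldh1a2 and Cyp26c1. Among neighbours in this order, Crabp1 and Crabp2, Crabp2 and Aldh1a3, and Cyp26a1 and Aldh1a2 did not overlap over the 2 libraries. All other neighbours overlapped, so their order is not resolved by 2 libraries. Crabp1 and Crabp2 ranked first and second in each library. The third place was taken by Rdh10 in replicate 1 and by Aldh1a3 in replicate 2.

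Among the synthesis genes, Rdh10 had the smallest ratio between the libraries, but the wide interval of Aldh1a2 includes that ratio. Rdh10 encodes the enzyme of the first oxidation step and lies at chromosome 1, 16105774 to 16133734, on the plus strand (GRCm38). It stood at 3.30 TPM in replicate 1 and 4.07 TPM in replicate 2, from 325 and 449 expected counts. The deposited credible intervals, of unstated level, were 2.92 to 3.68 TPM and 3.65 to 4.45 TPM and overlap narrowly. Scaled counts were 1.28 times higher in replicate 2 (95% interval 1.10 to 1.48). This is below the 2-fold that was set for a call. Counting error of reads alone does not cover it (adjusted p = 0.0022, exact binomial test with Benjamini-Hochberg adjustment over 14768 genes). Its coding transcript, of 6 exons, took 91.6% and 87.65% of the gene's TPM, and a transcript with a retained intron the remainder.

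Aldh1a3 showed the widest gap of the tested members. It encodes a retinaldehyde dehydrogenase best known from the ventral retina and the nasal region, and lies at chromosome 7, 66390890 to 66427517, on the minus strand. It stood at 0.80 TPM in replicate 1, from 47 counts, and at 7.83 TPM in replicate 2, from 674 counts. The intervals, 0.693 to 1.35 TPM and 7.30 to 8.79 TPM, lie far apart. Scaled counts were 13.1 times higher in replicate 2 (95% interval 9.86 to 18.2, adjusted p = 1.32e-130, exact binomial test). In TPM the ratio was 9.79, since the effective length given for the gene was 1996 bases in replicate 1 and 2561 bases in replicate 2. Of 14768 genes tested, 9, with Aldh1a3 among them, had a ratio this large or larger. Aldh1a3 entered the test through its level in replicate 2, as replicate 1 alone was under the minimum of 1 TPM.

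The reads of Aldh1a3 were also divided differently among its transcripts in the 2 libraries. The 13-exon coding transcript of 3441 bases (ENSMUST00000015278) took 30.77% of the gene in replicate 1 and 60.23% in replicate 2. A 7-exon coding transcript of 1496 bases (ENSMUST00000174209), which ends before the last exons of the long one, took 69.23% and 38.08%. In counts the long and the short transcript had 24.2 and 22.8 reads in replicate 1 and 530 and 140 in replicate 2. The long transcript was thus at 0.25 and 4.72 TPM and the short one at 0.56 and 2.98 TPM. Both were higher in replicate 2, by intervals that do not overlap: 0.148 to 0.349 against 4.21 to 5.03 TPM for the long transcript, and 0.321 to 0.795 against 2.33 to 3.49 TPM for the short one. The other 3 annotated transcripts were listed at 0 to 0.13 TPM.

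Aldh1a1 was the other tested member that differed by 2-fold or more. It encodes the retinaldehyde dehydrogenase of the dorsal retina and of ventral midbrain dopaminergic cells, lies at chromosome 19, 20492715 to 20643465, on the plus strand, and stood at 1.24 TPM in replicate 1, from 71 counts, and 5.59 TPM in replicate 2, from 367 counts. The credible intervals were 0.952 to 1.52 TPM and 4.96 to 6.07 TPM and do not overlap. Scaled counts were 4.75 times higher in replicate 2 (95% interval 3.70 to 6.25, adjusted p = 8.1e-43, exact binomial test), and 35 of the 14768 genes, itself included, had a ratio as large. The tables list a single Aldh1a1 transcript, with 13 exons, which starts at position 20601961. RefSeq places a further start of the gene upstream, in the window beginning at 20492333, and RNA from there that does not share the listed exons is not in these values.

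Aldh1a2, the main retinaldehyde dehydrogenase of the early trunk mesoderm and the somites, and also a gene of the meninges, was low in both pools. It lies at chromosome 9, 71215789 to 71296243, on the plus strand. Replicate 1 had 0.49 TPM and replicate 2 had 0.69 TPM, from 31 and 50 counts, with overlapping intervals of 0.330 to 0.669 TPM and 0.505 to 0.882 TPM. The ratio of 1.48 had a 95% interval of 0.934 to 2.41, so a difference was not detectable at this depth. With a mean of 0.59 TPM, it was under the minimum for the test.

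The family as a whole was low in replicate 1 and higher in replicate 2, with a summed level of 2.53 and 14.1 TPM. Its makeup shifted with it. Aldh1a1 supplied 49.0% of Aldh1a transcripts in replicate 1 and 39.6% in replicate 2, Aldh1a2 19.4% and 4.89%, and Aldh1a3 31.6% and 55.5%. Aldh1a1 was therefore the leading member in replicate 1 and Aldh1a3 in replicate 2. In replicate 1 they rest on 71, 31 and 47 counts.

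**Figure D2:**
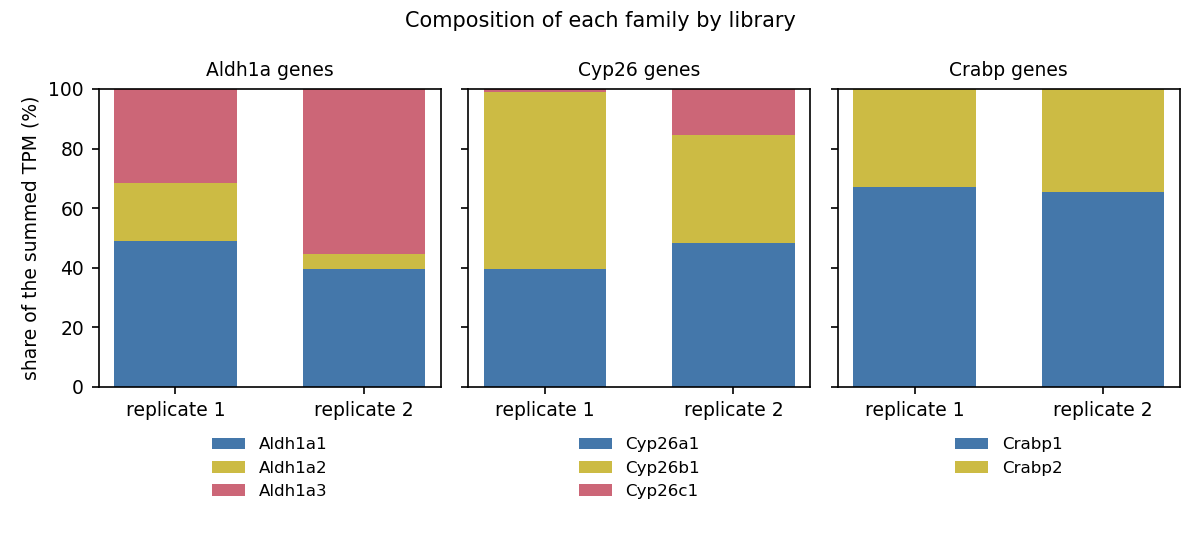
Share of each gene in the summed TPM of its family (percent) in replicate 1 and replicate 2, for Aldh1a, Cyp26 and Crabp genes. The Crabp1 share is 67.1% and 65.3%, while Aldh1a3 goes from 31.6% to 55.5% and Cyp26c1 from 1.16% to 15.3% of their families.

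The breakdown genes summed to 3.44 TPM in replicate 1 and 4.96 TPM in replicate 2. Cyp26b1, which clears retinoic acid from the limb, the hindbrain and the gonad, lies at chromosome 6, 84571414 to 84593908, on the minus strand. It stood at 2.04 and 1.80 TPM, from 276 and 278 counts. It was the one member with a lower TPM in replicate 2, but its intervals overlapped (1.78 to 2.25 and 1.58 to 1.99 TPM) and the ratio of 0.931 had a 95% interval of 0.785 to 1.10 (adjusted p = 0.53, exact binomial test). A 7-exon transcript of 4700 bases took 83.57% and 100% of it. The second transcript, of 4751 bases, had intervals reaching 1.29 and 0.640 TPM, so the pair is poorly separated by these reads.

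Cyp26a1 and Cyp26c1 are neighbours, with 4399 bases between them on the plus strand of chromosome 19. Cyp26a1, the breakdown enzyme of the anterior neural plate and the tail bud and a gene that retinoic acid itself induces, lies at 37697798 to 37701536. It stood at 1.36 and 2.40 TPM, from 67 and 135 counts, with intervals of 1.05 to 1.69 TPM and 1.98 to 2.77 TPM that do not overlap. Scaled counts were 1.86 times higher in replicate 2 (95% interval 1.38 to 2.54, adjusted p = 8.8e-05, exact binomial test). That stays short of the 2-fold call, and 212 of 14768 genes had a ratio as large.

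Cyp26c1, known from the anterior hindbrain, the head and the retina, lies at 37685581 to 37693398. It was barely present in replicate 1, at 0.04 TPM from 2 counts, which is under the 0.060 TPM that 3 counts would give. In replicate 2 it reached 0.76 TPM from 42 counts. The ratio of 15.7 had a 95% interval of 5.05 to 166, wide because of the 2 counts. With a mean of 0.40 TPM, Cyp26c1 was under the minimum for the test. Without a filter on low values it was called (adjusted p = 5.0e-09, exact binomial test over 24645 genes), as were 4.1% of those genes. It supplied 1.16% of Cyp26 transcripts in replicate 1 and 15.3% in replicate 2. Cyp26b1 led the family in replicate 1 with 59.3% and Cyp26a1 in replicate 2 with 48.4%.

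Promoter windows show what the 2 neighbouring breakdown genes and Aldh1a1 have at the start sites given by RefSeq. Each window runs from 250 bases before to 50 bases after the start site given by RefSeq (GRCm38.p6), 5′ to 3′ along the gene. The windows of Cyp26a1 (chr19:37697558-37697857), Cyp26c1 (chr19:37685430-37685729) and Aldh1a1 (chr19:20601718-20602017, the start of the transcript in the tables) are on the plus strand. The listed Cyp26c1 transcript starts at 37685581, inside its window but upstream of the RefSeq start. The Cyp26c1 window thus holds less sequence before that transcript's start than the other windows do. Capitals mark each match to the hexamers AGGTCA or AGTTCA, which nuclear receptors of the retinoic acid type bind as direct repeats, searched on both strands. On the opposite strand AGTTCA reads TGAACT.
Cyp26a1: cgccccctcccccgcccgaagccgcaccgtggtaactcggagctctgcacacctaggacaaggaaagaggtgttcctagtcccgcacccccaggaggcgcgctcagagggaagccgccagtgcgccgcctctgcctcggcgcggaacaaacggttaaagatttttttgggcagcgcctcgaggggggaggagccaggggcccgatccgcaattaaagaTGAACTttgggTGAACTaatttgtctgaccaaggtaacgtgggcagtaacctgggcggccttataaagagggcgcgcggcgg
Cyp26c1: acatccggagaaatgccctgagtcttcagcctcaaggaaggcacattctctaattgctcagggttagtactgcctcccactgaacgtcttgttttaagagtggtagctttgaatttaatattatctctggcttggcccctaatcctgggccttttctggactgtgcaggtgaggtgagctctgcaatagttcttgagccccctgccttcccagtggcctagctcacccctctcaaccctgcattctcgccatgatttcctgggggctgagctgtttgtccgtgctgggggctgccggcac
Aldh1a1: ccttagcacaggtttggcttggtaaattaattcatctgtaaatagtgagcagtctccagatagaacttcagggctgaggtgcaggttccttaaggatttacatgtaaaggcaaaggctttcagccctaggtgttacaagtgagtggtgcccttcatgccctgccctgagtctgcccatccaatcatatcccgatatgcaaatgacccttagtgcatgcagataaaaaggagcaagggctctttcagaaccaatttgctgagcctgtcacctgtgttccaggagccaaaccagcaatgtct

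In the Cyp26a1 window 2 hexamers stood as a direct repeat with a spacer of 5 bases, 32 to 16 bases before the start site. Direct repeats with spacers of 1, 2 or 5 bases were searched. The windows of Cyp26c1 and Aldh1a1 held no hexamer, and neither did those of Aldh1a2, Crabp1, Cyp26b1 and the upstream Aldh1a1 start. In all, 7 windows of 6 members were matched, and Rdh10, Aldh1a3 and Crabp2 had none. Of 32851 promoter windows of this length, 27.7% held at least 1 hexamer, 0.161% a direct repeat with any of these spacers, and 0.0396%, or 13 windows, one with a spacer of 5. A match describes letters and does not show that the site was bound in this tissue, and a window with no match says nothing on sites elsewhere. Cyp26a1, the gene with the repeat, was at 1.36 and 2.40 TPM here.

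Crabp1 was among the most abundant messages of the tissue. It encodes a binding protein that is thought to buffer retinoic acid and pass it to breakdown, and is known from neural crest and early neurons. It lies at chromosome 9, 54764748 to 54773110, on the plus strand. It stood at 969 TPM in replicate 1 and 1094 TPM in replicate 2, from 19996 and 25830 counts, each just above its deposited interval, which surrounds the posterior mean; 80 of 21474 protein-coding genes had a higher mean. Scaled counts were 1.19 times higher in replicate 2 (95% interval 1.17 to 1.22, adjusted p = 8.8e-78, exact binomial test). At this depth even a small difference exceeds counting error, and the ratio is far from 2-fold.

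Crabp2, which carries retinoic acid to its nuclear receptors, lies at chromosome 3, 87948666 to 87953376, on the plus strand. It stood at 475 TPM in replicate 1 and 581 TPM in replicate 2, from 11591 and 16225 counts, with 224 protein-coding genes above it. The ratio was 1.29 (95% interval 1.26 to 1.33, adjusted p = 8.1e-99, exact binomial test). A 4-exon coding transcript took 99.71% and 99.54% of the gene, and a transcript with a retained intron the other 1.38 and 2.69 TPM. Crabp1 exceeded Crabp2 by 2.04 times in replicate 1 and 1.88 times in replicate 2, and its share of the pair was 66.2% ± 1.28 (SD, n = 2). The balance of the 2 binding proteins thus varied far less between the pools than that of the Aldh1a or Cyp26 genes.

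Read over all 9 members, 8 had a higher TPM in replicate 2, against 37.4% of the genes tested. The 8 include Aldh1a2 and Cyp26c1, which were under the minimum for the test, so the bases differ. Of the 7 members that passed the minimum for the test, 2 were called, Aldh1a1 and Aldh1a3, both higher in replicate 2. Over all 14768 genes 2.32% were called in either direction and 0.664% as higher in replicate 2, and among the 5882 genes with a mean of 1 to 10 TPM, where both of them lie, 1.53% were called higher in replicate 2. The median log2 ratio was 0.37 over the 7 tested members and 0.01 over all genes tested. An adjusted p below 0.05 at any size of difference was reached by 6 of the 7 members and by 53.0% of all genes tested. These tests compare 2 libraries of a single group and cover counting error only. They show that the libraries differ and nothing about a condition. Each pool gave a single library, so differences of pool and of library preparation cannot be told apart.

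**Figure D3:**
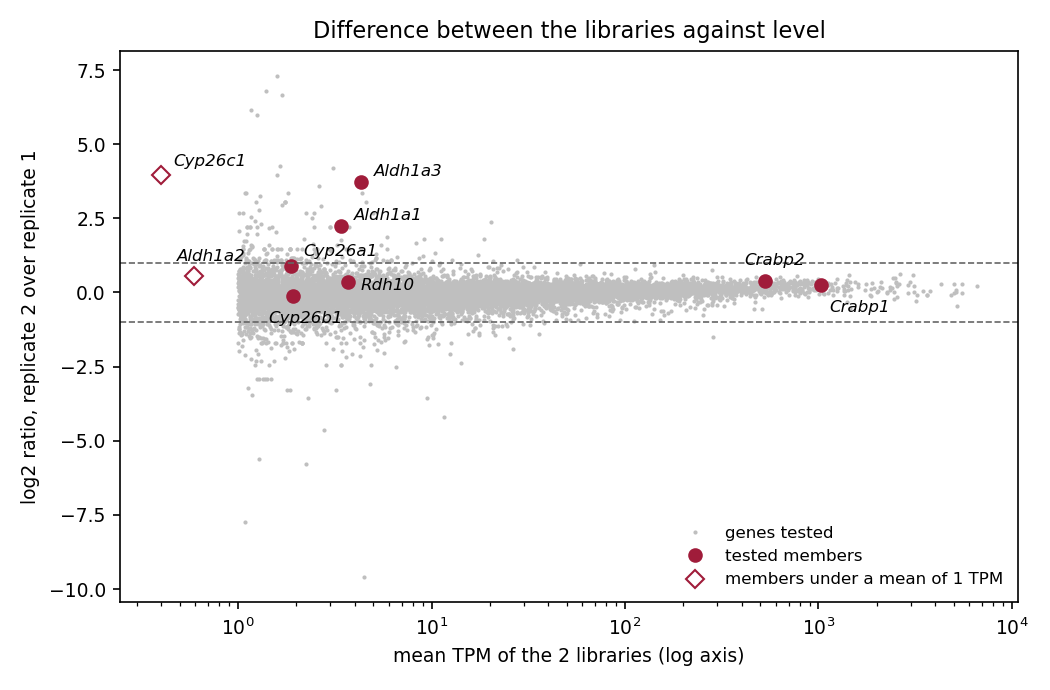
Log2 ratio of scaled counts, replicate 2 over replicate 1, against mean TPM (log axis) for the genes tested (grey), the 7 tested members (filled) and the 2 members under a mean of 1 TPM (open); dashed lines mark 2-fold. Aldh1a3 at 3.71 and Aldh1a1 at 2.25 lie above the cloud of genes of like level, while Crabp1 at 0.26 and Crabp2 at 0.37 lie within it.

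The ratio of Aldh1a to Cyp26 transcripts differed between the pools. Summed Aldh1a TPM was 0.735 times summed Cyp26 TPM in replicate 1 and 2.84 times in replicate 2. Rdh10, also a synthesis gene, stood at 3.30 and 4.07 TPM and is not in the Aldh1a sum. The values are therefore not the ratio of all synthesis genes to breakdown genes. Aldh1a and Cyp26 transcripts together were a small part of the Crabp level in each pool: the Crabp sum was 571 times the Aldh1a sum in replicate 1 and 119 times in replicate 2, and 420 and 338 times the Cyp26 sum.

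The rest of the pathway was described with lists that take retinol from uptake to target genes. For uptake, carriage and storage, 4 of 11 genes were detected. Dgat1, an enzyme that can esterify retinol, stood at 52.9 and 50.2 TPM, and Lrat, the main retinol-esterifying enzyme of storage tissues, at 0 and 0.01 TPM. The one gene of this list that was called was Ttr, which encodes the carrier of retinol-binding protein in plasma and is a choroid plexus gene: it stood at 0.40 and 2.98 TPM, with a log2 ratio of 2.95 (adjusted p = 3.9e-18, exact binomial test). Ttr entered the test only through its level in replicate 2.

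Of 18 other dehydrogenases and reductases of retinol and retinaldehyde, 9 were detected and none of the 9 tested was called. Adh5 and Akr1b3, enzymes with broad substrates, led at 225 and 233 TPM and at 200 and 241 TPM. Dhrs3, which reduces retinaldehyde back to retinol and works together with Rdh10, stood at 5.90 and 7.25 TPM, and was named for that link after its values were seen. Dhrs9 and Rdh7 were listed at 0 TPM in both. The alcohol dehydrogenase genes Adh1, Adh4 and Adh7 were at 0.22 TPM or less.

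All 8 genes of the list of receptors and ligand shuttles were detected and none was called. Fabp5, which can carry retinoic acid to Ppard, stood at 458 and 478 TPM. Rxrb was the highest receptor gene at 47.3 and 45.2 TPM. The retinoic acid receptor genes were close to each other: Rara was at 13.6 and 13.2 TPM, Rarg at 12.1 and 13.8 TPM and Rarb, itself a target of retinoic acid, at 11.55 and 11.5 TPM. Ppard was lowest at 1.22 and 1.11 TPM. All 10 coregulator genes were detected, none was called, and they ran from Hdac3 at 148 and 142 TPM and Ncor1 at 117 and 102 TPM down to Ncoa1 at 1.74 and 1.48 TPM.

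Of 16 genes known to respond to retinoic acid, 8 were detected and none of the 8 tested was called. The highest was Crabp2, followed by the homeobox gene Meis1 at 37.8 and 41.0 TPM, and both Crabp2 and Cyp26a1 are members described above. Hoxb1 was at 0.10 and 0.12 TPM, and Hoxa4 and Stra8 were listed at 0 TPM. The median log2 ratio of the tested genes was 0.16 in this list, 0.10 among receptors and shuttles and -0.04 among coregulators, beside 0.01 over all genes tested. By another measure, the fold of summed TPM between the same pools, the target list differed 1.17-fold and the Aldh1a genes 5.58-fold. Crabp2, itself a member, made up most of the target list's sum, at 475 and 581 TPM of 591 and 694 TPM. The 1.17-fold therefore mostly restates Crabp2 and does not describe the other target genes. Of the 16 genes, 7 had a higher TPM in replicate 2, with the members Crabp2 and Cyp26a1 among them. Both members also enter the list's median of 0.16. Whether target genes follow Aldh1a levels was not tested.

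A list of 9 genes named as regulators of Aldh1a and Cyp26 expression in the head had 6 detected and 1 called. Pax6 and Fgf8 led at 32.9 and 34.0 TPM and at 21.7 and 24.65 TPM. Vax2, a homeobox gene of the ventral retina, was called, at 0.51 and 1.64 TPM (log2 ratio 1.75, adjusted p = 5.3e-06, exact binomial test), but it reached the test only through its level in replicate 2. Six3, a homeobox gene of the forebrain and eye field, went the other way at 6.70 and 3.41 TPM (log2 ratio -0.96, adjusted p = 1.1e-18, exact binomial test), short of 2-fold. Tbx5, a gene of the dorsal retina, was lowest at 0.09 and 0.16 TPM.

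Among markers of neighbouring regions and other cells, the eye list was the one with the most called genes. Of 10 genes of eye field, retina and pigment epithelium, 9 had a higher TPM in replicate 2, against 37.4% of the genes tested. The exception was Dct, at 1.72 and 1.38 TPM. The share of 37.4% covers genes averaging 1 TPM or more, while Mitf, Tyrp1, Tyr and Tbx5 of the list averaged less. Six3, an eye field gene placed in other lists, was also lower in replicate 2, at 6.70 and 3.41 TPM. The eye list summed to 11.0 and 19.6 TPM. Of its 6 tested genes, 3 were called, all higher in replicate 2: Rax, an eye field homeobox gene, at 2.99 and 5.73 TPM, Six6 at 0.56 and 1.55 TPM, and Vax2. Among all genes with a mean of 1 to 10 TPM, where these 6 lie, 1.53% were called higher in replicate 2. Six6 and Vax2 passed the minimum only through replicate 2, whereas Rax passed it in both. Rax was only just over the 2-fold limit, with a log2 ratio of 1.01 in scaled counts, and was under 2-fold in deposited TPM. Its call under other processing choices is not reported here. Pmel, a pigment cell gene, was the highest of the list at 3.27 and 5.70 TPM, no gene of the list was at 0, and the median log2 ratio of those tested was 0.98. Whether eye tissue has a part in the levels of Aldh1a1, Aldh1a3 and Cyp26c1 was not tested. In bulk tissue, more cells of a type and more RNA per cell cannot be told apart.

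**Figure D4:**
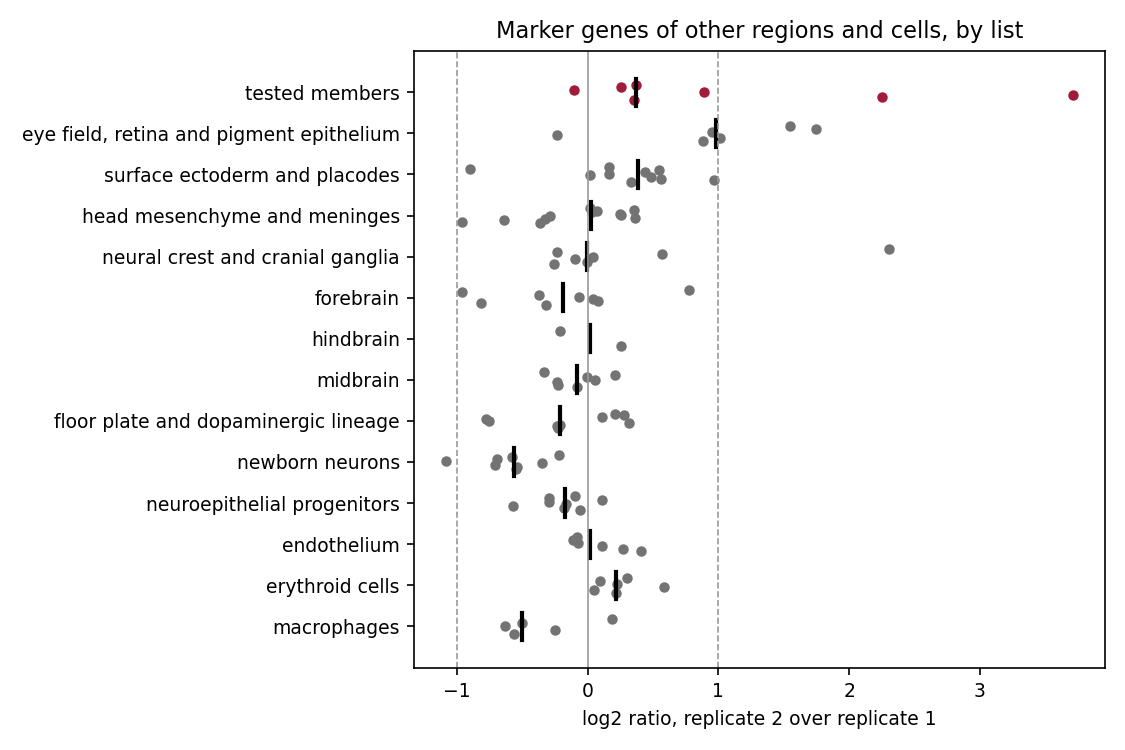
Log2 ratio of scaled counts, replicate 2 over replicate 1, for the 7 tested members and for the tested genes of 13 marker lists; each point is a gene, black bars are medians and dashed lines mark 2-fold. The eye list has a median of 0.98, the newborn neuron list a median of -0.56 and the midbrain list a median of -0.08.

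Other lists differed less or in the other direction. The 10 genes of surface ectoderm and placodes summed to 68.7 TPM in replicate 1 and 87.4 TPM in replicate 2, with 7 higher in replicate 2 and none called; Krt8 was at 17.0 and 20.2 TPM and Krt18 at 9.92 and 18.4 TPM. The 12 genes of head mesenchyme and meninges summed to 849 and 609 TPM with none called and 4 higher in replicate 2. The collagen gene Col3a1 made up most of that sum's difference with Col1a1, at 416 and 317 TPM and at 149 and 72.6 TPM, while the list's median log2 ratio was 0.02. Foxc1 was at 2.75 and 2.63 TPM, Lum at 91.8 and 69.3 TPM and Prrx2 at 18.95 and 25.2 TPM. The 11 genes of floor plate and dopaminergic lineage, where Aldh1a1 is also known, summed to 86.0 and 70.2 TPM with none called and 5 of 11 higher in replicate 2, and the median log2 ratio of those tested was -0.21. Lmx1a, the highest of this list, was at 15.8 and 12.8 TPM. Th, the enzyme gene of dopamine synthesis, was at 11.9 and 6.68 TPM, and Foxa2, a floor plate gene, at 8.82 and 10.3 TPM. The part of these cells in the Aldh1a1 values was not tested.

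Of the 8 genes of neural crest and cranial ganglia, Sox10 was called, at 0.46 and 2.15 TPM (log2 ratio 2.30, adjusted p = 4.8e-23, exact binomial test), having entered the test only through replicate 2. The list summed to 77.3 and 68.3 TPM, with 3 of 8 genes higher in replicate 2. The 9 forebrain genes summed to 86.1 and 67.6 TPM with none called, and 1 of them, Emx1, was higher in replicate 2. The 8 hindbrain genes summed to 6.94 and 8.82 TPM with 5 higher in replicate 2 and none of the 2 tested called. Hoxa2 was at 0.24 and 1.67 TPM, from 11 and 89 counts. Its mean of 0.955 TPM was just under the minimum, so this difference was not tested. Hoxa3 and Hoxb3 were at 0. Dcx, a gene of migrating neurons, was the one newborn neuron gene called, lower in replicate 2 at 44.5 and 19.6 TPM. Endothelial, erythroid and macrophage lists had no called gene. The parts of these lists, and of Ttr, in the members' differences were not tested.

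Exact sequence shared between the members was searched for in words of 100 bases. No word of 100 bases in the transcripts of any member (GENCODE M21) occurred in another member. A single word of Aldh1a1 occurred in Aldh1a7 and a single word of Aldh1a3 in Casc4, and the other 7 members shared none with any gene. No exon of another annotated gene overlapped an exon of a member on either strand. Both searches used GENCODE M21, while the deposited values rest on M4, and words with mismatches were not searched. Whether reads were divided between genes was not tested.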

How the data were processed

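The assay is labelled total RNA-seq. RNA was extracted with the mirVana kit, spike-in RNAs were added, and the linked protocols include a manual of a kit that primes on poly(A) tails, per the labels' protocols. The sources used here do not say whether strand was kept. Per the file headers, the tables are on mm10 with GENCODE M4 and derive from transcriptome alignments; the aligner is not given in the sources used here, nor is the quantifier. The deposited expected counts are estimated reads per gene or transcript. The deposited TPM values are scaled by effective length, and spike-ins count in their total. The authors' FPKM values were used in an alternative. Credible bounds, a signal on the TPM scale, are as deposited. The deposited isoform percent is a transcript's share of its gene.

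Names and positions came from GENCODE M21 (GRCm38, the assembly of mm10), matched for 42462 of 43346 identifiers. The 97 spike-in rows (3.39% and 3.28% of counts) and 26248 tRNA rows stayed out. Gene counts were rounded and scaled by TMM (edgeR 4.0.16, factors 1.01 and 0.988). The exact binomial test, two-sided, was run on the 14768 genes averaging 1 TPM or more and adjusted over them by Benjamini and Hochberg's method. Genes were called at 2-fold or more and an adjusted p under 0.05. Ratios have 0.5 added to each count. Intervals are exact at 95%. Tests, intervals and the 3-count floor cover counting error of reads only. PCR copies are not independent molecules, so the error in counting molecules can be larger than these state. The test was checked on simulated data. edgeR's quasi-likelihood test has no contrast in 1 group of 2.

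Members and lists were chosen with earlier results of these data known. Genes named were the members and, from the lists, genes among the 2 highest, the lowest (pathway lists) and the called ones, and markers known to overlap a member (Rax, Tbx5, Vax2, Foxc1, Lum, Th, Lmx1a); others were named after their values were seen, and some genes of these lists are not reported here. With 2 libraries no gene was ranked by likeness of pattern to a member. Alternatives were other minimums, folds, scalings (DESeq2 1.42.0, library totals, deposited TPM), pseudocounts, filters, FPKM, posterior mean TPM and leaving out each replicate. Python 3.11.15, pandas 2.3.3, scipy 1.17.1 and R 4.3.3 were used.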

Additional observations from a re-analysis of the deposited data

How the results depend on the processing

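The count of detected members was 6 and became 3 with a minimum of 2 TPM, where Crabp1, Crabp2 and Rdh10 passed; it was 7 at 0.5 TPM, 7 by posterior mean TPM, 4 by FPKM, and 7 or 6 in a single library. Aldh1a1 and Aldh1a3 were called under every alternative run (4-fold, DESeq2 size factors, library totals, both other filters and non-overlapping deposited bounds in place of the test). A 1.5-fold limit added Cyp26a1, and dropping the filter, or asking for 10 counts in either library, added Cyp26c1, for 3 members each. The members tested under these choices were 7, 9 and 9. All genes called rose with the same choices from 343 of 14768 tested (2.32%) to 1112 of 14768 (7.53%), 1010 of 24645 (4.1%) and 978 of 18347 (5.33%). All genes called at 4-fold were 46 (0.311%). The log2 ratio of Aldh1a3 ran from 3.14 (deposited TPM) to 3.73 and that of Aldh1a1 from 2.09 to 2.26, and none of the 7 tested members changed direction in the 4 alternatives run for ratios; Aldh1a2 and Cyp26c1 were not among them. FPKM values are on a lower scale, which moved 5 of 9 levels by more than the SD. No paired analysis was possible because the series has 1 group. What limits these results is 1 library a side and, for Cyp26c1 and Aldh1a2, few counts.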
